A study of Homo sapiens with 16 samples.

Results

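At 2812 genomic regions (5.09% of those examined) Hs578T cells acquired an H3K27ac peak with TWEAK. Of these, 380 already carried a peak in untreated MDA-MB-231 cells, and these 380 regions (the members) are described here. Both MDA-MB-231 and Hs578T are established cell lines from human triple-negative breast cancer (TNBC), and H3K27ac is acetylation of lysine 27 of histone H3. Peaks of all 16 deposited lists were merged where they shared 1 bp or more, giving 64545 regions, of which 55219 were called by 2 or more lists and are termed consensus regions. Members were chosen by a peak in both Hs578T control TWEAK lists, no peak in either Hs578T control untreated list, and a peak in at least 1 MDA-MB-231 control untreated list. They made up 13.5% of the Hs578T gains and 0.688% of the consensus regions. All peak calls of the Hs578T control lists and of the MDA-MB-231 control untreated lists were therefore used in the choice and are given as a description. The question asked of the members was how they behaved in MDA-MB-231 cells with TWEAK and without Fn14.

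H3K27ac marks active promoters and enhancers, and enhancers that lie far from genes are often active in only some cell types. TWEAK is a cytokine of the TNF superfamily, and Fn14, encoded by TNFRSF12A, is its receptor, which recruits TRAF adaptor proteins and activates NF-kB and the MAP kinases upstream of AP-1. AP-1 and NF-kB are transcription factors that bind enhancers and recruit the acetyltransferases that place H3K27ac.

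H3K27ac ChIP-seq was performed in 8 groups of 2 replicates: MDA-MB-231 and Hs578T, each as control and as Fn14 knockout (KO) cells, each untreated or TWEAK-treated. All cells were serum-starved for 8 h, and TWEAK was given at 10 ng/ml for 48 h and replenished after 24 h. The KO cells were made with CRISPR-Cas9 guides delivered by lentivirus, and the study speaks of CRISPR clones in its genotyping primers, which include a pair for Fn14, without saying whether each KO line is 1 clone. The study's methods call the replicates of its cell line ChIP-seq biological, and the labels do not tie a replicate to a culture, so p-values measure the spread between these samples. The 16 lists held 39544 to 47197 peaks over 64.2 to 88.9 Mb, with a median fold enrichment of 5 to 5.89, and hold no reads, so the sequencing depth is unknown. A peak list shows where the signal passed the caller's threshold, so a region without a peak may still be acetylated below it. Peak lists do not show whether Fn14 was lost in the KO cells.

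As examples, sequence windows of 160 bases are given for 5 members. The windows are from hg38, forward strand, and capitals mark matches to the AP-1 motif (TGACTCA or TGAGTCA) or to the NF-kB motif. Each window was placed on the match nearest the middle of its region where there was one, so the matches follow from the choice. The region nearest CALN1, a neuronal calcium-binding protein gene, had a peak in all 4 MDA-MB-231 control lists and in no MDA-MB-231 Fn14 KO list. The regions nearest SIPA1L1, a GTPase-activating protein gene, and FAT4, an atypical cadherin gene, had a peak in all 8 MDA-MB-231 lists. The regions nearest HSFX4, of an X-linked heat shock factor family, and VEGFC, a growth factor of lymphatic vessels, had a peak in no Fn14 KO list of either line.
CALN1, chr7:71868901-71869060: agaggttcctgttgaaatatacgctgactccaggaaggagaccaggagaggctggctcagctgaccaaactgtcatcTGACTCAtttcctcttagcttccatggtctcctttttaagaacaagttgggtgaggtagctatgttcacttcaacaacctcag
SIPA1L1, chr14:71478625-71478784: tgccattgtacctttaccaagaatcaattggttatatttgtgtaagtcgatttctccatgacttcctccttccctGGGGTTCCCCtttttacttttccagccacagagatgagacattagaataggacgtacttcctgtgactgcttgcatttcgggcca
FAT4, chr4:125985847-125986006: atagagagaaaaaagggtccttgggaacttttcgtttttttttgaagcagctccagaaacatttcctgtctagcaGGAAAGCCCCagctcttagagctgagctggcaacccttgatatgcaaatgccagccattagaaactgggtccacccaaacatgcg
HSFX4, chrX:149927543-149927702: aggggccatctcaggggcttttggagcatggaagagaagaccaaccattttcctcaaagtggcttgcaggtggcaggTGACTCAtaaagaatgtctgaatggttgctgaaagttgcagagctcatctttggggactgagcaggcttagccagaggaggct
VEGFC, chr4:176927697-176927856: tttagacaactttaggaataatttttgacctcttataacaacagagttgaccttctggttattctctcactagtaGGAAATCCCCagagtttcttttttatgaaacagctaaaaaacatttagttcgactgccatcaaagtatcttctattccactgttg
The CALN1 and HSFX4 windows each hold 1 AP-1 match, and the SIPA1L1, FAT4 and VEGFC windows each hold 1 NF-kB match. Over all members, 35.5% held an AP-1 and 12.9% an NF-kB match in the 500 bp around the region centre. The CALN1 and SIPA1L1 windows lie in introns, the HSFX4 window lies within 2 kb of a start site, and the FAT4 and VEGFC windows lie between genes. Of the 5 windows, 4 occur at 1 place on the main chromosomes, while the HSFX4 window occurs at 2 places, so reads of that region could have come from either copy.

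The acetylation of the members in untreated MDA-MB-231 control cells was weak and uneven between replicates. Replicate 1 had a peak at 140 members (36.8%) and replicate 2 at 346 (91.1%). A peak in both lists was present at 106 members, in replicate 2 only at 240 and in replicate 1 only at 34. The median fold enrichment of these peaks was 3.07 in replicate 1 and 3.11 in replicate 2, and their median rank by fold enrichment was at the 12.0 and 13.9 percentile of all peaks of the list. The median −log10 q-value was 2.18 and 2.34, against 9.44 and 9.95 for all peaks of those lists, and 43.6% and 37.3% of the member peaks were below 2, against 9.45% and 8.98% of all peaks. The label of an already acetylated region thus rested, for most members, on a peak near the calling threshold in 1 list. In 377 of the 380 members the untreated MDA-MB-231 peak overlapped a Hs578T control TWEAK peak directly.

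The members just inside the rule were the region nearest TPR, a nuclear pore protein gene, with an untreated MDA-MB-231 −log10 q-value of 1.04, and the region nearest STAT3, a transcription factor activated by cytokines, with 1.06. Just outside it were the regions nearest CORO1C, an actin-binding coronin gene, and AGTR1, an angiotensin receptor gene, which were left out because of a peak in 1 untreated Hs578T list with a −log10 q-value of 1.01 and 1.07. In all, 1041 regions had a peak in both Hs578T control TWEAK lists, in 1 of the untreated Hs578T control lists and in an untreated MDA-MB-231 control list.

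**Figure D1:**
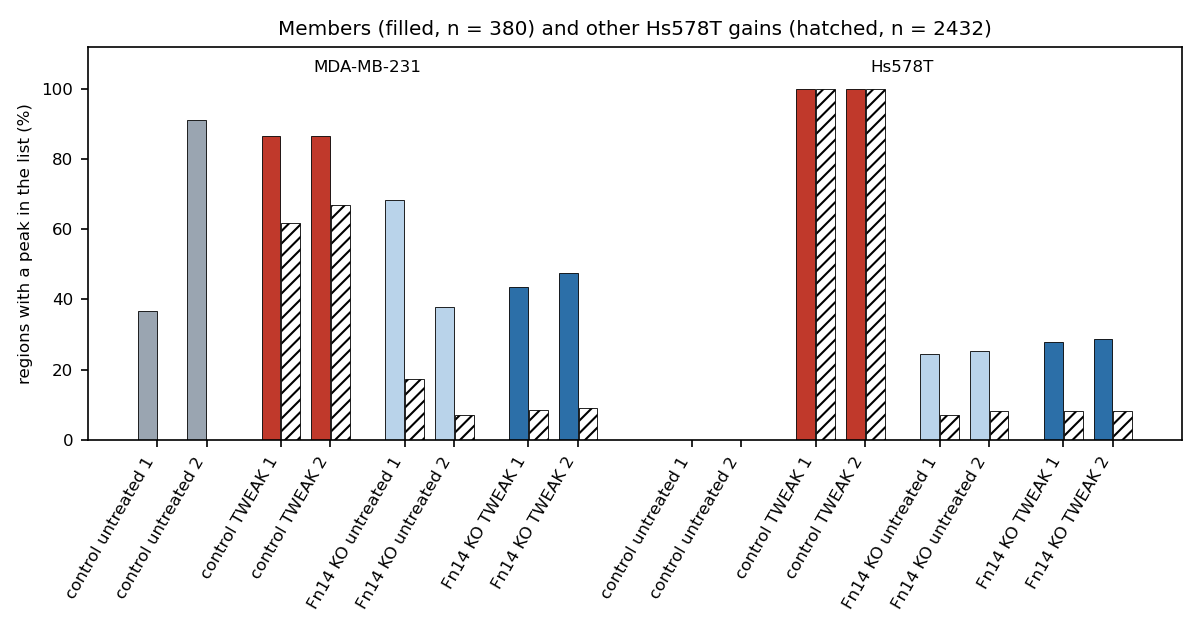
Percentage of the 380 members (filled bars) and of the 2432 other Hs578T gains (hatched bars) with a peak in each of the 16 lists (x axis: genotype, treatment and replicate, by line). The MDA-MB-231 control TWEAK lists reached 86.6% of the members in both replicates, the MDA-MB-231 Fn14 KO TWEAK lists 43.4% and 47.6%. The untreated control bars and the Hs578T control bars are set by the rule.

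In MDA-MB-231 control cells, member peaks were stronger and broader with TWEAK than without. A peak was present at 329 members (86.6%) in each of the 2 TWEAK lists, and at 304 members (80%) in both, while 26 (6.84%) had none. Among all 42735 consensus regions with an untreated MDA-MB-231 control peak, 80.8% were called in both TWEAK lists and 12.5% in neither. Over all members the share in both was thus near the background and the share in neither below it. The 2 sets differ in make-up, since 274 of 380 members but 6126 of the 42735 regions had 1 untreated list. The members that had a peak in only 1 untreated list stood further from the background of the same kind. Of these 274, 211 (77.0%) were called in both TWEAK lists, against 34.9% of the 6126 consensus regions with 1 untreated list. The share was 183 of 240 where the untreated peak was in replicate 2 only (76.2%, against 36.7%) and 28 of 34 where it was in replicate 1 only (82.4%, against 24.9%). Of the 106 members with a peak in both untreated lists, 93 (87.7%) also had one in both TWEAK lists, beside 88.5% of such consensus regions.

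The length under peaks showed the change more clearly than the presence of a peak. Mean covered length per member was 195 bp and 570 bp in the untreated control lists and 877 bp and 951 bp in the TWEAK control lists, a difference of 532 bp between the group means. The lists did not overlap between the groups. The difference was smaller, at 283 bp, when untreated replicate 1, the replicate with fewer member peaks, was left out. It was then missing from both the choice of members and the untreated mean, which rested on replicate 2 alone. Median fold enrichment of member peaks was 3.07 and 3.11 untreated and 4.16 and 4.30 with TWEAK, and the median −log10 q-value was 2.18 and 2.34 against 4.85 and 5.36. Covered length was higher in both TWEAK lists than in both untreated lists at 219 members (57.6%, background 19.4%), and lower at 9 (2.37%, background 30.9%). This count was 160 of 274 for members with 1 untreated list (58.4%, background 20.4%) and 59 of 106 for members with both (55.7%, background 19.2%). Untreated values entered both the rule and these counts, so they have no test. The lower count could be met only with a peak in both untreated lists. That held for 106 of the 380 members and for 36609 of the 42735 background regions, so its 2 percentages are not comparable.

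The 93 members with a peak in all 4 MDA-MB-231 control lists allowed peaks to be compared with peaks. Their median covered length was 490 and 713 bp in the untreated lists and 973 and 1180 bp in the TWEAK lists, and their median fold enrichment was 3.30 and 3.63 against 4.74 and 4.86. Covered length was higher in both TWEAK lists at 59 of them (63.4%, background 21.7%) and fold enrichment at 67 (72.0%, background 37.8%). Both backgrounds are over the 32407 consensus regions with a peak in all 4 lists. The untreated peaks of those regions were stronger and wider, with a median fold enrichment of 6.55 and 7.43 and a median covered length of 1486 and 1730 bp. The backgrounds are thus not matched on peak strength or width.

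**Figure D2:**
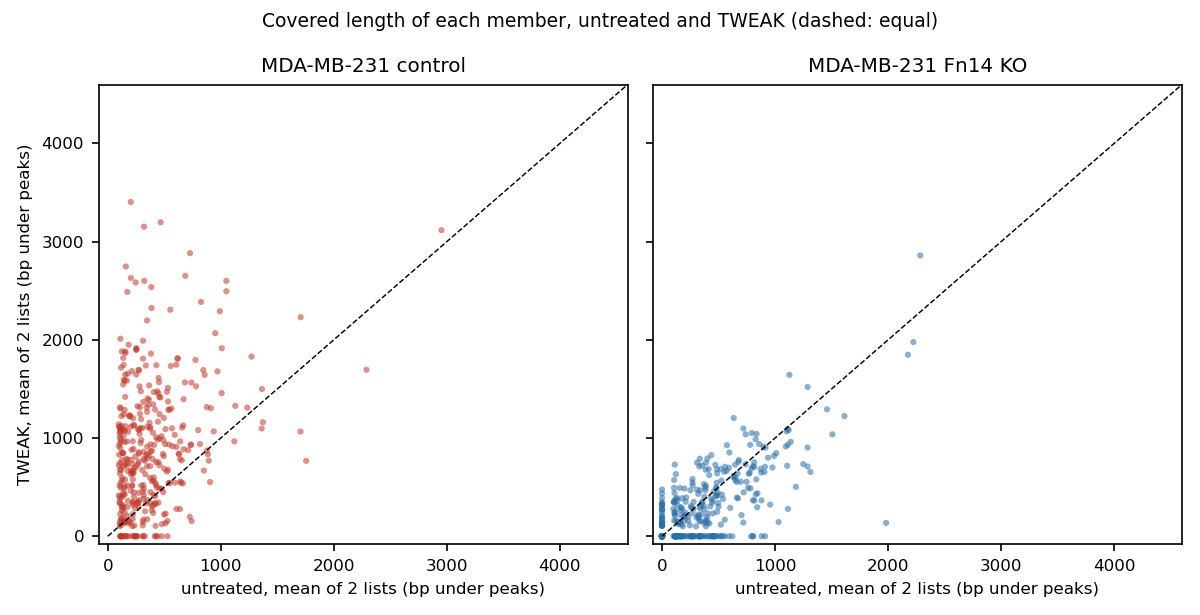
Length of each of the 380 members under peaks in MDA-MB-231 cells, as the mean of the 2 untreated lists (x axis, bp) and the mean of the 2 TWEAK lists (y axis, bp), for control cells (left) and Fn14 KO cells (right); the dashed line marks equal lengths. In control cells 301 members lay above the line, and in Fn14 KO cells 114 did. The 80 members with no MDA-MB-231 KO peak lie on the line at the origin of the right panel. The rule allows no such member on the left, so the 2 counts are not alike. Over all consensus regions they were not counted.

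The MDA-MB-231 Fn14 KO lists showed no such difference between TWEAK and untreated cells at the members. A peak was present at 260 members (68.4%) in untreated replicate 1, at 144 (37.9%) in untreated replicate 2, and at 165 (43.4%) and 181 (47.6%) in the TWEAK lists. Of all consensus regions with an untreated control peak, 91.3%, 81.4%, 84.7% and 83.3% had one in the same lists. Mean covered length was 491 and 225 bp untreated and 285 and 299 bp with TWEAK, so the TWEAK lists lay between the 2 untreated replicates. Covered length was higher in both TWEAK lists than in both untreated lists at 18 members (4.74%, background 7.09%) and lower at 43 (11.3%, background 17%). Compared with control TWEAK lists, covered length was lower in both KO TWEAK lists at 246 members (64.7%, background 30.5%) and higher at 12 (3.16%, background 20.3%). By number of untreated lists, the lower count was 179 of 274 (65.3%, background 22.9%) with 1 and 67 of 106 (63.2%, background 31.7%) with both. The counts of 18 and 12 could be met only with a peak in both KO TWEAK lists, present at 122 members. The count of 43 needed a peak in both KO untreated lists, present at 129. The background share with such peaks was not counted, so the percentages of these 3 counts are not comparable. At 197 members (51.8%, background 13.8%) covered length was higher in both control TWEAK lists than in both control untreated lists and in both KO TWEAK lists. The mean share of members with a peak in TWEAK lists was 86.6% ± 0 (SD, n = 2) in control and 45.5% ± 2.98 (SD, n = 2) in KO cells, a difference of 41.1 percentage points. The lists did not overlap, and p was 0.333 in an exact permutation test, two-sided, which is the smallest that 2 lists against 2 allow.

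Without TWEAK, the control and KO lists overlapped at the members. Mean covered length was 195 and 570 bp in control and 491 and 225 bp in KO cells. Covered length was lower in both KO than in both control untreated lists at 33 members (8.68%, background 22.2%) and higher at 43 (11.3%, background 12.4%). The higher count could be met only with a peak in both KO untreated lists, present at 129 members. The background share with such peaks was not counted. The lower count could be met only with a peak in both control untreated lists. That held for 106 of the 380 members and for 36609 of the 42735 background regions, so its 2 percentages are not comparable. All 4 KO lists of MDA-MB-231 had lower median −log10 q-values over all peaks (5.79 to 7.69) than the control lists (9.44 to 10.8), and the part of this in the difference at the members was not tested.

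The members were spread over the number of MDA-MB-231 KO lists with a peak: 80 (21.1%) had a peak in none, 83 in 1, 69 in 2, 63 in 3 and 85 (22.4%) in all 4. Of the other Hs578T gains, 76.3% had a peak in none and 2.14% in all 4, a direction that the rule favours. Over all consensus regions this was not counted. Members present in more KO lists also carried stronger peaks in control cells. Median fold enrichment in the control TWEAK lists was 3.84 for the 80 members with no KO peak and 4.80 for the 85 with 4, and the share with a peak in both control TWEAK lists was 70% and 95.3%. Covered length was higher in both control TWEAK lists than in both untreated lists at 41 of the 80 (51.2%) and at 57 of the 85 (67.1%). This share did not rise steadily, with 55.4%, 50.7% and 63.5% for 1, 2 and 3 KO lists. Over all consensus regions the values by number of KO lists were not counted, so they are not shown to be particular to the members. In the 85, mean covered length was 1132 bp in the control TWEAK lists and 755 bp in the KO TWEAK lists.

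**Figure D3:**
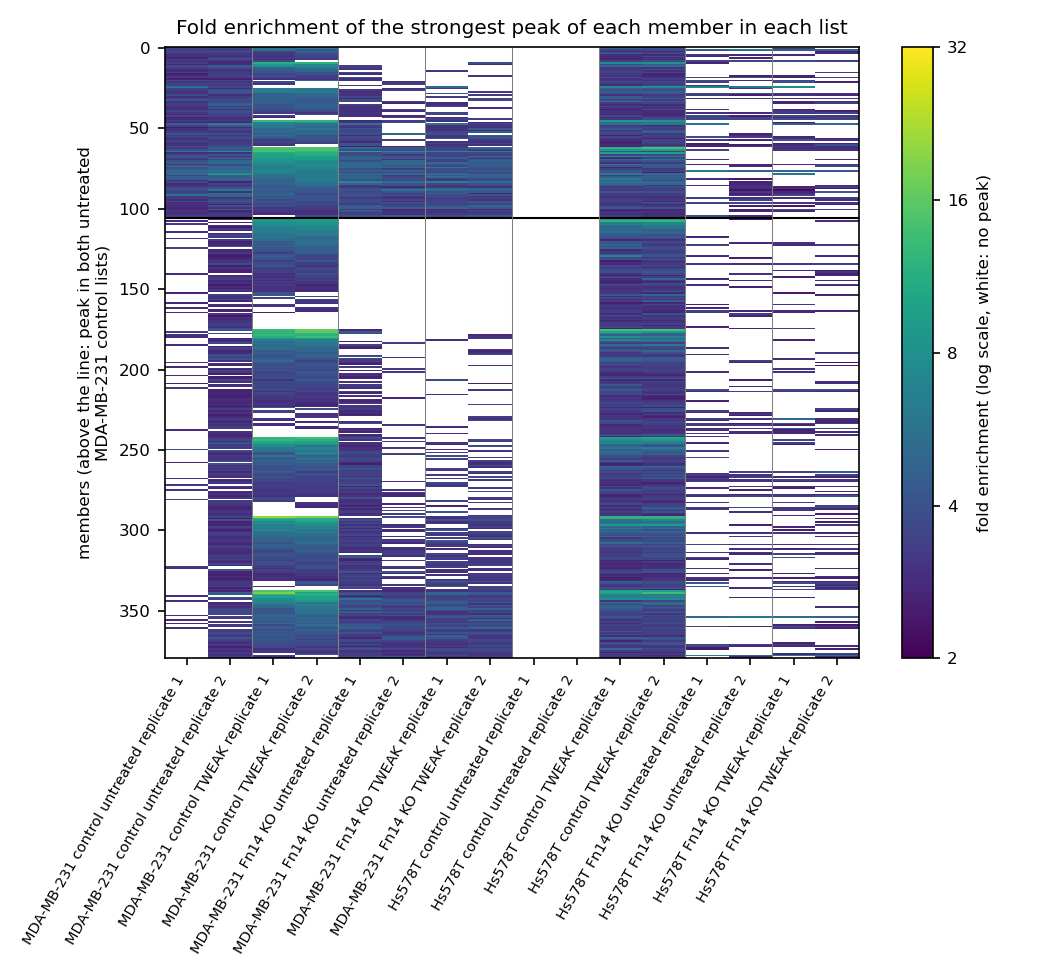
Fold enrichment of the strongest peak of each of the 380 members (rows) in each of the 16 lists (columns), on a log colour scale, with white for no peak; rows are grouped by the number of untreated MDA-MB-231 control lists and of MDA-MB-231 Fn14 KO lists with a peak. Peaks of the control TWEAK lists are brighter than those of the untreated lists to their left, and the MDA-MB-231 KO columns are empty for 80 members and filled in all 4 lists for 85.

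In Hs578T Fn14 KO cells, a peak was present at 93 (24.5%) and 96 (25.3%) members in the untreated lists and at 106 (27.9%) and 109 (28.7%) in the TWEAK lists. Both TWEAK lists lay slightly above both untreated lists. Covered length was higher in both TWEAK lists at 22 members (5.79%, background 15%) and lower at 17 (4.47%, background 13.3%). Each count could be met only with a peak in both Hs578T KO lists of the higher group. The background regions were not chosen for lacking a peak in Hs578T, so these percentages are not comparable. No Hs578T KO list had a peak at 189 members (49.7%), and 36 (9.47%) had a peak in all 4, beside 82.5% and 1.64% of the other Hs578T gains. In neither line did a KO list carry a peak at 45 members (11.8%, beside 66.7% of the other gains). Of these 45 members, 32 had a peak in both MDA-MB-231 control TWEAK lists. Over all consensus regions these shares were not counted.

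Over all 8 KO lists, the share of members with a peak was 2.11 percentage points lower with TWEAK than without (p = 1, exact permutation test, 36 arrangements within line, adjusted p = 1 over 5 tests). This value turned to 5.47 points higher without MDA-MB-231 Fn14 KO untreated replicate 1, and to 1.27 points higher when every list was cut to the length of the shortest. The share was 22.8 points higher in MDA-MB-231 than in Hs578T KO cells (exact permutation p = 0.0556, the smallest possible, adjusted p = 0.139), a direction that the rule favours, since it asks for an untreated peak in MDA-MB-231 and none in Hs578T. It fell to 8.93 points (exact permutation p = 0.278) when the members were chosen without Hs578T control untreated replicate 2, to 14.5 without replicate 1, and to 11.8 without Hs578T control TWEAK replicate 1. The TWEAK effect in KO cells did not differ detectably between lines (−11.1 points, MDA-MB-231 minus Hs578T, exact permutation p = 0.667, adjusted p = 0.833). It was 4.09 points without MDA-MB-231 Fn14 KO untreated replicate 1 and −26.3 points without replicate 2.

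In cells without Fn14, the members were then compared with the other 2432 Hs578T gains, which had no untreated MDA-MB-231 control peak. The other gains had a peak in 7.15% to 17.4% of regions in the MDA-MB-231 KO lists and in 6.95% to 8.26% in the Hs578T KO lists. The members were higher in 8 of 8 KO lists, on average by 28.8 percentage points (p = 0.00781, exact sign-flip permutation test over lists, two-sided, the smallest that 8 lists allow; adjusted p = 0.0391). With the signs of a line's same-numbered lists flipped together (replicate block) the exact permutation p was 0.125, the smallest possible, so the call was lost. The direction is one that the rule favours, since a peak in untreated MDA-MB-231 control cells is what split the sets. Matched on that peak, the 274 members with 1 untreated list lay near the background in the MDA-MB-231 KO lists. Their shares were 63.9% and 31.4% in the untreated and 34.7% and 42.0% in the TWEAK lists, beside 61.1%, 30.4%, 38.9% and 37.1% of the 6126 consensus regions with 1 untreated list. The 106 members with both untreated lists had a peak at 80.2%, 54.7%, 66.0% and 62.3%, below the 96.4%, 90.0%, 92.4% and 91.0% of the 36609 consensus regions of that kind. Measured as the percentage of length under peaks the difference was 12.8 points. In the MDA-MB-231 control TWEAK lists the other gains had a peak at 61.7% and 67.0%, and their peaks had a median fold enrichment of 3.80 and 3.81, beside 4.16 and 4.30 at the members. In the Hs578T control TWEAK lists, which chose both sets, the median fold enrichment was 3.40 and 3.52 at the members and 3.46 and 3.47 at the other gains. Median width was 1230.5 bp for members, 963 bp for other gains and 1702 bp for consensus regions.

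Among members with a peak in no KO list of either line, the 6 with the highest fold enrichment in the MDA-MB-231 control TWEAK lists lay nearest HSFX4, VEGFC, SUFU, TANK, STAT3 and CENPE. The TANK region (chr2:161164863-161167675), in an intron of a gene whose product binds TRAF proteins and tunes NF-kB signalling, had a fold enrichment of 3.0 over 411 bp in untreated replicate 2, no peak in untreated replicate 1, and 7.31 and 8.21 over 2448 and 2812 bp with TWEAK. The VEGFC region (chr4:176926969-176929287), 134 kb upstream of the start, had 2.57 over 297 bp in untreated replicate 2 and 8.06 and 8.67 over 1691 and 1478 bp with TWEAK. Fold enrichment in Hs578T control TWEAK cells was 5.44 and 5.72 at TANK and 6.6 and 7.03 at VEGFC. In both regions the peaks of TWEAK-treated control cells were several times wider than the untreated peak, and no KO list had a peak.

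The STAT3 region (chr17:42397706-42400315) lay 9.17 kb upstream of its start and had a fold enrichment of 2.42 in untreated replicate 2 and 6.83 and 6.93 with TWEAK. The region nearest SUFU (chr10:102542252-102543449), a negative regulator of Hedgehog signalling, was the reverse in its replicates, with 3.28 in untreated replicate 1 and no peak in replicate 2, and with 7.80 and 8.16 with TWEAK. For CENPE, a kinetochore motor gene, the values were 3.09 in untreated replicate 2 and 6.12 and 7.20 with TWEAK. At HSFX4 they were 3.39 and then 10.7 and 11.3. Each of these 6 regions had a peak in only 1 untreated list and in both TWEAK lists.

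**Figure D4:**
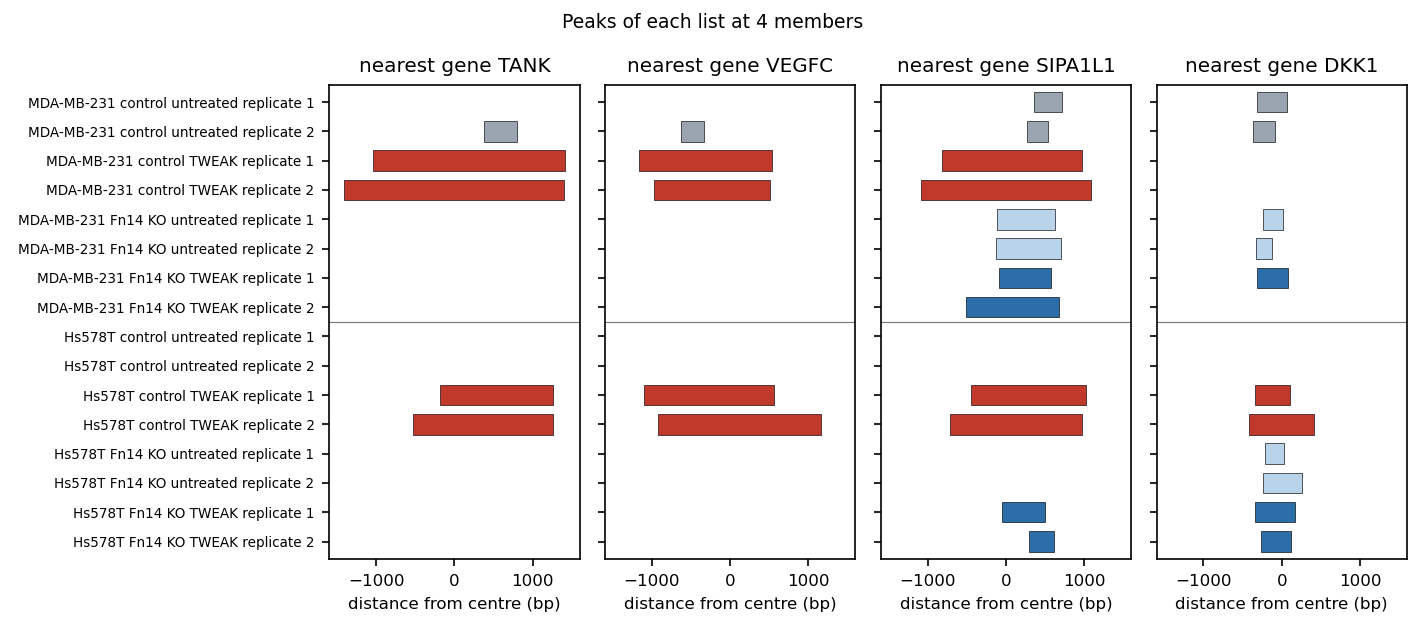
Peaks (bars) of each of the 16 lists (rows) at the members nearest TANK, VEGFC, SIPA1L1 and DKK1, by distance from the centre of the merged region in bp; grey is control untreated, red control TWEAK, light blue Fn14 KO untreated and dark blue Fn14 KO TWEAK. TANK and VEGFC have no KO peak, SIPA1L1 has a peak in all 8 MDA-MB-231 lists that is 1798 and 2183 bp wide in control TWEAK cells, and DKK1 has untreated but no TWEAK peaks in MDA-MB-231 control cells.

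Another pattern, seen at 42 members, was a peak in all 8 MDA-MB-231 lists. Over all consensus regions this was not counted. Consensus regions with both untreated lists had a peak in 90.0% to 96.4% in each MDA-MB-231 KO list, so such peaks are not particular to the members. At SIPA1L1 (chr14:71477467-71479649) fold enrichment was 3.19 and 4.46 untreated and 14.6 and 14.6 with TWEAK in control cells, and 4.97 and 4.06 untreated and 3.65 and 5.18 with TWEAK in KO cells. The region nearest FAT4 (chr4:125984765-125986917), 591 kb from its start, had 3.83 and 4.05 against 13.8 and 14.6 in control cells, and 3.19 to 3.80 over the 4 KO lists. At ST3GAL1, a sialyltransferase gene, control values were 2.83 and 2.96 untreated and 10.7 and 11.6 with TWEAK, and KO values were 3.58 to 4.23. The KO values overlapped the untreated control values at SIPA1L1, lay below them at FAT4 and above them at ST3GAL1. In all 3 regions they lay below the control TWEAK values. The regions nearest TMEM121, which encodes a transmembrane protein, and MCPH1, a gene of chromosome condensation, had 9.72 and 11.2, and 10.2 and 9.74, in control TWEAK cells and at most 3.70 and 5.65 in KO cells. PDE1C, a cyclic nucleotide phosphodiesterase gene, was the exception among the 6 highest, with 6.08 and 8.22 already in untreated control cells, 14.5 and 13.0 with TWEAK, and 6.51 to 10.0 in KO cells.

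A further pattern, a peak in all 4 MDA-MB-231 control lists and in no MDA-MB-231 KO list, was seen at 9 members. Its share over all consensus regions was not counted. The region nearest FUT10, a fucosyltransferase gene, had 3.25 and 3.07 untreated and 6.25 and 6.74 with TWEAK, and was 516 and 592 bp wide untreated and 2219 and 2395 bp wide with TWEAK. The region nearest ITPR2, an intracellular calcium channel gene, had 3.47 and 3.38 against 5.61 and 6.48. CALN1 had 3.30 and 3.20 against 5.66 and 4.19, and had peaks of 4.39 to 5.84 in all 4 Hs578T KO lists. At SNRPG, which encodes a core protein of spliceosomal snRNPs, untreated and TWEAK values overlapped (3.87 and 4.21 against 3.45 and 4.91). RPS19BP1, which encodes a ribosomal protein binding partner, had 2.92 and 3.11 against 3.14 and 3.63, with 595 and 618 bp against 1878 and 1616 bp.

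Of the 106 members with both untreated lists, 4 (3.77%, beside 6.78% of consensus regions with both) had a peak in neither TWEAK list of MDA-MB-231 control cells, and all 4 were short. The region nearest DKK1 (chr10:52308390-52309218), an inhibitor of Wnt signalling, had 3.73 and 4.02 untreated, peaks in 3 of the 4 MDA-MB-231 KO lists, and 2.76 and 4.48 in Hs578T control TWEAK cells. The others lay nearest PITPNA, a phosphatidylinositol transfer protein gene (3.28 and 3.15 untreated), SBNO2, a transcriptional regulator gene (2.79 and 2.91), and CLPP, a mitochondrial protease gene (5.62 and 3.66). DKK1 and SBNO2 also had a peak in all 4 Hs578T KO lists although no untreated Hs578T control list had one.

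The largest difference in mean covered length, TWEAK minus untreated, was 3200 bp, at TUT7, a terminal uridylyltransferase gene, where peaks spanned 0 and 408 bp untreated and 3197 and 3611 bp with TWEAK around 0.26 kb from the start. The other 5 of the 6 largest increases lay nearest APPL2 (an endosomal adaptor, 2832 bp), NTMT1 (a protein N-terminal methyltransferase, 2728 bp), POLG (the mitochondrial DNA polymerase, 2586 bp), TANK (2424 bp) and KDM6A (an H3K27 demethylase, 2336 bp). The KDM6A region had a peak in all 8 Fn14 KO lists, of 744 to 3270 bp, which overlapped the 2123 and 3045 bp of the control TWEAK lists. Among the largest decreases were −988 bp at A3GALT2, a galactosyltransferase gene, and −593.5 bp at TMEM132C, which encodes a transmembrane protein. Over all members the median difference was 444 bp (quartiles 63.5 and 907 bp), beside a median of −99.5 bp for all consensus regions with an untreated peak.

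By position, 39 members (10.3%) lay within 2 kb of a protein-coding start site, 148 (38.9%) in introns, 44 (11.6%) in gene bodies touching an exon and 149 (39.2%) between genes. The share near start sites was 5.84% for other gains, 25.1% for consensus regions and 11.2% for consensus regions with 1 untreated MDA-MB-231 control list. The median distance to the nearest start site was 26.7 kb for members, 35.7 kb for other gains and 18.4 kb for consensus regions. A peak in both MDA-MB-231 control TWEAK lists was found at 33 of the 39 members near start sites and at 111 of the 148 in introns. The 375 members on chromosomes with an annotated start site had 353 different nearest genes, and 121 of these genes (34.3%) were also nearest to another Hs578T gain, beside 13.2% of all genes nearest to a consensus region. Only KAZN, a gene of cell junction organisation, was nearest to 3 members. Chromosome 8 held 30 members (7.89%, against 4.30% of consensus regions).

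Among members near start sites, the region nearest SSTR2 (chr17:73165688-73168011), a somatostatin receptor gene, had the highest fold enrichment with TWEAK. Its values were 2.66 in untreated replicate 2 and no peak in replicate 1, 14.9 and 14.5 with TWEAK in control cells, 2.80 to 3.02 in the 4 KO lists, and 10.2 and 9.82 in Hs578T control TWEAK cells. At the start of TNC, the matrix glycoprotein tenascin C (chr9:115063114-115064527), fold enrichment was 4.03 in untreated replicate 2, 9.80 and 11.0 with TWEAK, and 4.06 to 4.22 in 3 KO lists. HSD17B14, a steroid dehydrogenase gene, had 3.65 in untreated replicate 2 and 12.5 and 11.9 with TWEAK. At RTL3, a gene derived from a retrotransposon, untreated values of 4.76 and 4.70 were closer to the TWEAK values of 6.94 and 6.17.

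Of 484 genes in 12 lists chosen for TNBC and TWEAK signalling, 27 were nearest to a member, and they accounted for 30 members. That is 7.89% of members, beside 8.96% of other gains and 6.99% of consensus regions. The nearest start could be far away, as at INHBA (602 kb), DUSP10 (264 kb), FGFR1 (119 kb), SMAD3 (107 kb) and RND3 (86.0 kb). A nearest gene is thus a label of position, and whether a region acts on it was not tested. A peak in both MDA-MB-231 control TWEAK lists was present at 28 of the 30, beside 80% of all members. A peak in at least 1 MDA-MB-231 KO list was present at 19 of the 30, a smaller share than among all 380 members, of which 80 had none.

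The cytoskeleton, filopodia and migration list held the most, with 9 members at 8 genes (2.37% of members and 1.32% of consensus regions), of which 8 had a peak in both control TWEAK lists and 4 in any MDA-MB-231 KO list. FSCN1 encodes fascin, the actin bundler of filopodia. The region nearest it (chr7:5677323-5678712), 82.6 kb downstream of its start, had 2.87 in untreated replicate 2, 6.28 and 6.69 with TWEAK and no KO peak. At PALM2AKAP2, a kinase-anchoring protein gene, fold enrichment was 3.35 in untreated replicate 2 and 7.72 and 7.78 with TWEAK. RND3, a GTPase gene of the actin cytoskeleton, had 4.43 and 3.52 with TWEAK and 3.36 to 4.16 in all 4 KO lists, where control and KO values overlapped. PALLD encodes palladin, an actin-binding protein, and had 2.47 in untreated replicate 2 and 4.14 and 2.97 with TWEAK.

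The NF-kB and TNF list held 4 members at 3 genes, all with a peak in both control TWEAK lists. Beside TANK, the region over a start of TNFSF15, which encodes the TNF family ligand TL1A, had 3.78 in untreated replicate 1, 6.17 and 6.78 with TWEAK, and 2.60 and 2.77 in 2 MDA-MB-231 KO lists. Both regions nearest RIPK2, a kinase of NOD receptor signalling, lay over 400 kb away and had a peak in all 4 MDA-MB-231 KO lists. From the AP-1, MAF and JNK list there was 1 member, nearest DUSP10, a phosphatase of JNK and p38 (2.56 in untreated replicate 2, 6.90 and 6.10 with TWEAK).

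In the EMT and TGF-beta list, 4 members had a peak in both control TWEAK lists. A pair of regions nearest LTBP1, which encodes a TGF-beta binding matrix protein, had 6.18 and 6.07, and 5.47 and 5.36, with TWEAK, against 2.99 and 4.39, and 2.86 with no peak in replicate 2, untreated. INHBA, a TGF-beta family ligand gene, had 2.89 and 3.36 untreated and 4.82 and 4.74 with TWEAK, whereas SMAD3, a TGF-beta signal transducer gene, had 3.35 in untreated replicate 2 and 3.23 and 3.18 with TWEAK. The matrix list held 3 members, nearest TNC, SPARC, a matricellular protein gene (3.13 in untreated replicate 2, 6.35 and 7.37 with TWEAK), and SERPINB7, a serpin gene (2.94, then 3.77 and 3.90).

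The growth factor list held 4 members, nearest VEGFC, DKK1, FGFR1 and EGFR. FGFR1 and EGFR encode receptor tyrosine kinases, and their regions had 2.81 and 2.84 in untreated replicate 2 and 8.66 and 9.09, and 3.43 and 3.98, with TWEAK. Nearest STAT3 and IFI44, an interferon-induced gene (3.15 in untreated replicate 2, 4.86 and 4.85 with TWEAK), lay the 2 members of the interferon list. The cytokine, integrin and YAP lists had 1 member each, nearest OSMR, the oncostatin M receptor gene (2.83 in untreated replicate 1, 4.45 and 3.88 with TWEAK), ITGAV, an integrin subunit gene (3.14 in untreated replicate 2, 4.56 and 4.40), and AMOTL2, a YAP inhibitor gene (2.86 in untreated replicate 2, 3.88 and 3.54). The ITGAV region had a peak in all 8 KO lists. Its covered length was 0 and 1191 bp untreated and 248 and 842 bp with TWEAK, so the groups overlapped. They also overlapped at the AMOTL2 region, with 0 and 1788 bp untreated and 709 and 829 bp with TWEAK. The apoptosis list and the NAD, glycolysis and nucleotide metabolism list had no member.

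In 500 bp windows at the centre of each region, the AP-1 motif was present at 135 members (35.5%), beside 29.4% of other gains and 27.4% of all consensus regions. The NF-kB motif, searched on both strands like the others, was present at 49 members (12.9%), beside 27.8% of other gains and 8.60% of consensus regions. TEAD matches (GGAATG) were found at 31.6%, 30.8% and 29.1%. The order of members and other gains was thus opposite for AP-1 and NF-kB. Away from start sites the AP-1 share was 37.5% for members, 30.1% for other gains and 33.2% for consensus regions. The NF-kB share there was 12.3%, 27.6% and 7.83%. Among the 219 members whose covered length was higher in both TWEAK lists, 16.4% held an NF-kB match and 34.2% an AP-1 match, and among the other 161 members 8.07% and 37.3% did. In the 80 members with no MDA-MB-231 KO peak, 31.2% had an AP-1 and 8.75% an NF-kB match, and in the 85 with a peak in all 4 KO lists 42.4% and 10.6% did. Median GC content of the windows was 42% for members, 42.8% for other gains and 46% for consensus regions. The motifs were counted separately and may overlap, and a match describes letters in the window, not a bound site.

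**Figure D5:**
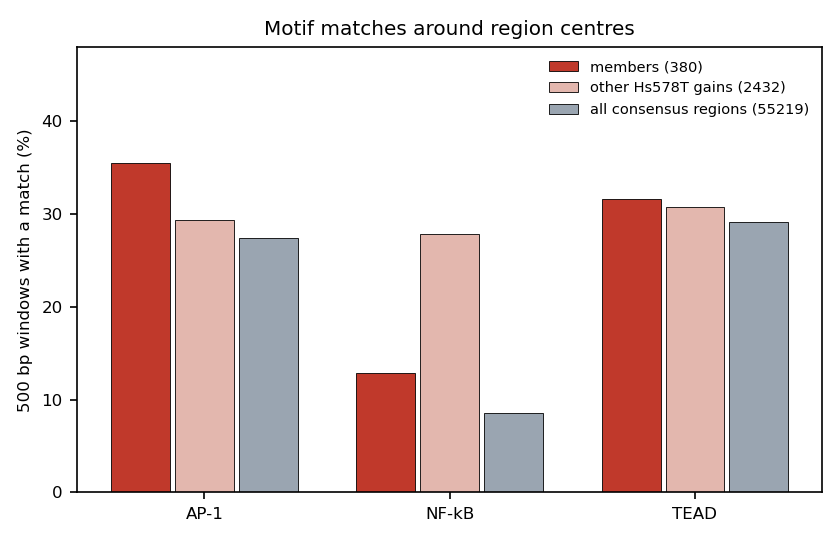
Percentage of 500 bp windows, centred on the regions, that hold at least 1 match to the AP-1, NF-kB or TEAD motif on either strand, for the 380 members, the 2432 other Hs578T gains and all 55219 consensus regions. NF-kB matches are found at 12.9% of members and 27.8% of other gains, AP-1 matches at 35.5% and 29.4%.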

How the data were processed

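The files were 16 lists of H3K27ac broad peaks, 1 per sample. Per the labels and the study's methods, the authors' tools were Trimmomatic for trimming, Bowtie2 for alignment (hg38) and MACS2 for peaks over input, and blacklisted regions were removed; deepTools is also named, and versions were not stated. The deposited columns were the authors' MACS2 values: a score of 10 times the −log10 q-value, a ratio (fold enrichment over background), and the −log10 of p and q. Broad calling was inferred from the columns. Weak regions near the threshold can enter 1 list and miss another. Depth is unknown.

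Peaks were merged at 1 bp, and the covered length of a region is its bp under the peaks of a list; the fold enrichment given for a region is that of its strongest peak. Shares per list were compared with exact permutation tests, two-sided, with Benjamini-Hochberg adjustment over 5 tests, threshold 0.05. The background of a count is the percentage of consensus regions with an untreated MDA-MB-231 control peak (of the same number of untreated lists where stated) that met the same criterion. Percentages and counts over regions describe these lists, since regions are not replicates. Nearest genes were those of the closest protein-coding transcript start in GENCODE 44, and chromosome names and lengths of the lists fitted the hg38 genome used. Coordinates are 1-based. The members, gene lists and rule for named regions were chosen with earlier results of these data known. Named were: all members with both untreated and no TWEAK peak in MDA-MB-231 control cells; the 6 highest by mean fold enrichment in MDA-MB-231 control TWEAK lists of those with all 4 control but no MDA-MB-231 KO peaks, with all 8 MDA-MB-231 peaks, with no KO peak in either line, and near a start site; the 6 largest increases and 3 largest decreases of covered length; at most 4 per gene list; and the regions at the edge of the rule. KAZN was named after its values were seen. A few items that this rule selects are not reported here. Sequences were from the first 3 of those classes of 6, outside chromosome 8 and UTRs, with the window placed on the AP-1 or NF-kB match nearest the middle where there was one. The scripts were tested on simulated lists. Python 3.11.15, numpy 2.4.6, pandas 2.3.3 and matplotlib 3.10.9 were used. Alternatives were a −log10 q minimum of 2, lists trimmed to 39544 peaks, a peak over at least 25% of the region, direct overlap of peaks, both untreated lists required, length instead of shares, a replicate block and each list left out.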

Additional observations from a re-analysis of the deposited data

How the results depend on the processing

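The difference between MDA-MB-231 control and Fn14 KO TWEAK lists (41.1 points) kept its direction in all 17 alternatives, from 27.8 to 50.3, and between 32.7 and 43.2 with a list left out. The difference between members and other gains in KO lists (28.8) lay between 12.8 and 42.2, and that between the KO lines (22.8) between 8.93, without Hs578T control untreated replicate 2, and 30.4. With labels exchanged only between lists of the same number (replicate block), the values were unchanged (41.1, −2.11, 22.8, 28.8 and −11.1), but the p for members against other gains became 0.125, the smallest this allows; no other call changed. Same-numbered lists deviated with correlations from −0.158 to 0.147, so the numbers were not taken to pair samples. The TWEAK difference in KO lists (−2.11) ranged from −9.74 to 5.47 with a list left out, was 1.27 with trimmed lists and 0 with both untreated lists required. Its difference between lines (−11.1) ranged from −26.3 to 4.09. Both turned without MDA-MB-231 Fn14 KO untreated replicate 1. The number of members was 106 with both untreated lists required and 141 to 1114 with a list left out: 141 without MDA-MB-231 control untreated replicate 2, 1114 and 689 without Hs578T control untreated replicate 1 or 2, and 617 without Hs578T control TWEAK replicate 1. The percentage in both MDA-MB-231 control TWEAK lists was 84.2 with a −log10 q minimum of 2, 86.9 with trimmed lists and 78.4 with 25% cover. It was 79.8 with direct overlap and 87.7 with both untreated lists required. With an untreated control list or a Hs578T control TWEAK list left out it was 62.7 to 85.8. Without MDA-MB-231 control TWEAK replicate 1 or 2 the values were 86.6 and 86.7, which are shares in the 1 TWEAK list that remained. The rise in covered length was 283 to 569 bp with a list left out, lowest without MDA-MB-231 control untreated replicate 1 (283 bp) and Hs578T control TWEAK replicate 1 (302 bp). With no reads, weak acetylation below the calling threshold cannot be told from none.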
